A study of Mus musculus with 24 samples.

Results

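Expression of 10 genes of the pericentral zonation program was followed in mouse liver: Glul, Oat, Cyp2e1, Cyp1a2, Gulo, Lect2, Rgn, Slc1a2, Rhbg and Axin2. They were chosen by symbol, as genes known for expression in the hepatocytes around the central vein, and all 10 were among the 13686 genes of the count table and the 11971 genes tested. The livers came from male wild-type C57BL/6 mice kept for 6 weeks on diets enriched in cottonseed oil (CSO), in olive oil (OO) or in safflower oil (SFO), or on chow. The table holds 6 CSO, 6 OO, 5 SFO and 6 chow libraries made by 3′ tag sequencing, in which each messenger RNA gives a tag near its 3′ end. The study asked how the cottonseed oil diet differs from the other high-fat diets in the genes it regulates. Age, housing and the hour of collection are not given in the sources used here, and the oil diets are described as high-fat, so chow is not matched to them in fat.

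Blood enters the liver lobule at the portal triads and leaves at the central vein, and hepatocytes along this path use different metabolic programs. Endothelial cells of the central vein secrete Wnt ligands and R-spondins, which stabilise β-catenin in the neighbouring hepatocytes, and β-catenin with TCF/LEF factors turns on pericentral genes and holds back periportal ones. The innermost pericentral cells capture ammonia that the periportal urea cycle has missed and fix it as glutamine, while the wider pericentral region carries much of the cytochrome P450 metabolism of the liver. The 10 genes cover these roles. Glul encodes glutamine synthetase, Rhbg an ammonia transporter, Slc1a2 a glutamate transporter, and Oat the ornithine aminotransferase that feeds ornithine into glutamate. Cyp2e1 and Cyp1a2 are cytochrome P450 enzymes, Rgn and Gulo catalyse the last steps of ascorbate synthesis, Lect2 is a secreted liver protein, and Axin2 is a feedback inhibitor of Wnt signalling.

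The set of RefSeq (GRCm38.p6) promoters used here had an entry for 7 of the 10 genes, and none for Gulo, Rgn and Rhbg. The 250 bases before the first listed start of each were searched on both strands. The letters sought were the core of the TCF/LEF site, CTTTGA or its reverse complement TCAAAG. The same windows were searched for the core of the aryl hydrocarbon receptor (AHR) site, GCGTG or CACGC, since Cyp1a2 is a classic target of that receptor. The AHR and TCF/LEF letters do not overlap within a match. The TCF/LEF letters were in 4 of the 7 windows, against 13.8% of all 32851 promoter windows of this length, and the AHR letters in 1 of 7, against 28.2%. Shown here are the 3 genes of the set that hold the TCF/LEF letters and passed a test below, followed by Glul, the archetypal pericentral gene, whose window holds neither motif. Capitals mark the matches, and each window runs 5′ to 3′ on the strand of its gene.
Cyp2e1, chr7:140763569-140763818, plus strand: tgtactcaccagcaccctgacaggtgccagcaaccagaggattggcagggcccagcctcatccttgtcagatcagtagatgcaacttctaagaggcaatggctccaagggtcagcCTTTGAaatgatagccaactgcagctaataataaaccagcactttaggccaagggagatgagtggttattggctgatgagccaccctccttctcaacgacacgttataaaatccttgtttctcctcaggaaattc
Lect2, chr13:56548539-56548788, minus strand: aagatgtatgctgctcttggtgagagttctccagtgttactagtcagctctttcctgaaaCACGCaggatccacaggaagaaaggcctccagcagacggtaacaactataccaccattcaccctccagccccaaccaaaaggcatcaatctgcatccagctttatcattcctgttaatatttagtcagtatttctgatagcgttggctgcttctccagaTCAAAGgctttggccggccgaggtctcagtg
Cyp1a2, chr9:57683656-57683905, minus strand: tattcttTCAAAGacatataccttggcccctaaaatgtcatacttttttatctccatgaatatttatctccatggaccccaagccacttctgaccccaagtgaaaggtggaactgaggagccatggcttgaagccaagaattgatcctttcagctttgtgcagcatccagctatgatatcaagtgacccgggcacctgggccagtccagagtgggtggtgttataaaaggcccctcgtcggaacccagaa
Glul, chr1:153899679-153899928, plus strand: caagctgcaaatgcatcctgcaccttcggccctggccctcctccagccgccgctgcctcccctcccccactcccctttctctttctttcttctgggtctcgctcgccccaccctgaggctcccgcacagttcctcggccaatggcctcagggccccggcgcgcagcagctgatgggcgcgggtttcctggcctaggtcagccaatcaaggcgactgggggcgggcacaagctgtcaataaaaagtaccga
In Cyp2e1 the TCF/LEF letters lie 135 to 130 bases before the start. In Lect2 they lie 31 to 26 bases before it, with the AHR letters at 190 to 186, and in Cyp1a2 they lie at 243 to 238. The fourth window with TCF/LEF letters belongs to Slc1a2, which has them 77 to 72 and 206 to 201 bases before its start. Oat, like Axin2, holds neither motif. These matches are letters in a window and were not measured as binding sites.

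Levels are given as CPM, the count relative to the library total after adjustment for composition by TMM. Because the assay gives 1 tag per transcript end, these levels do not scale with transcript length. Averaged over the 23 libraries, Cyp2e1 was far above the others at 7840.5 CPM and ranked 10 among all genes of the table. Rgn (1124 CPM), Glul (896 CPM) and Oat (892 CPM) formed the next tier, ahead of Cyp1a2 (689 CPM) and Gulo (587 CPM). Slc1a2 at 205 CPM and Lect2 at 101 CPM came after these. Axin2 at 12.7 CPM and Rhbg at 11.2 CPM were the least expressed, and their libraries overlapped throughout. Axin2 had 3 to 444 counts per library and Rhbg 15 to 337, and their fold changes had wider standard errors than those of the other 8 genes. The 10 genes together took 0.983 to 1.63% of the counts in CSO libraries, 1.17 to 1.46% in OO, 0.887 to 1.22% in SFO and 0.798 to 1.23% in chow.

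**Figure D1:**
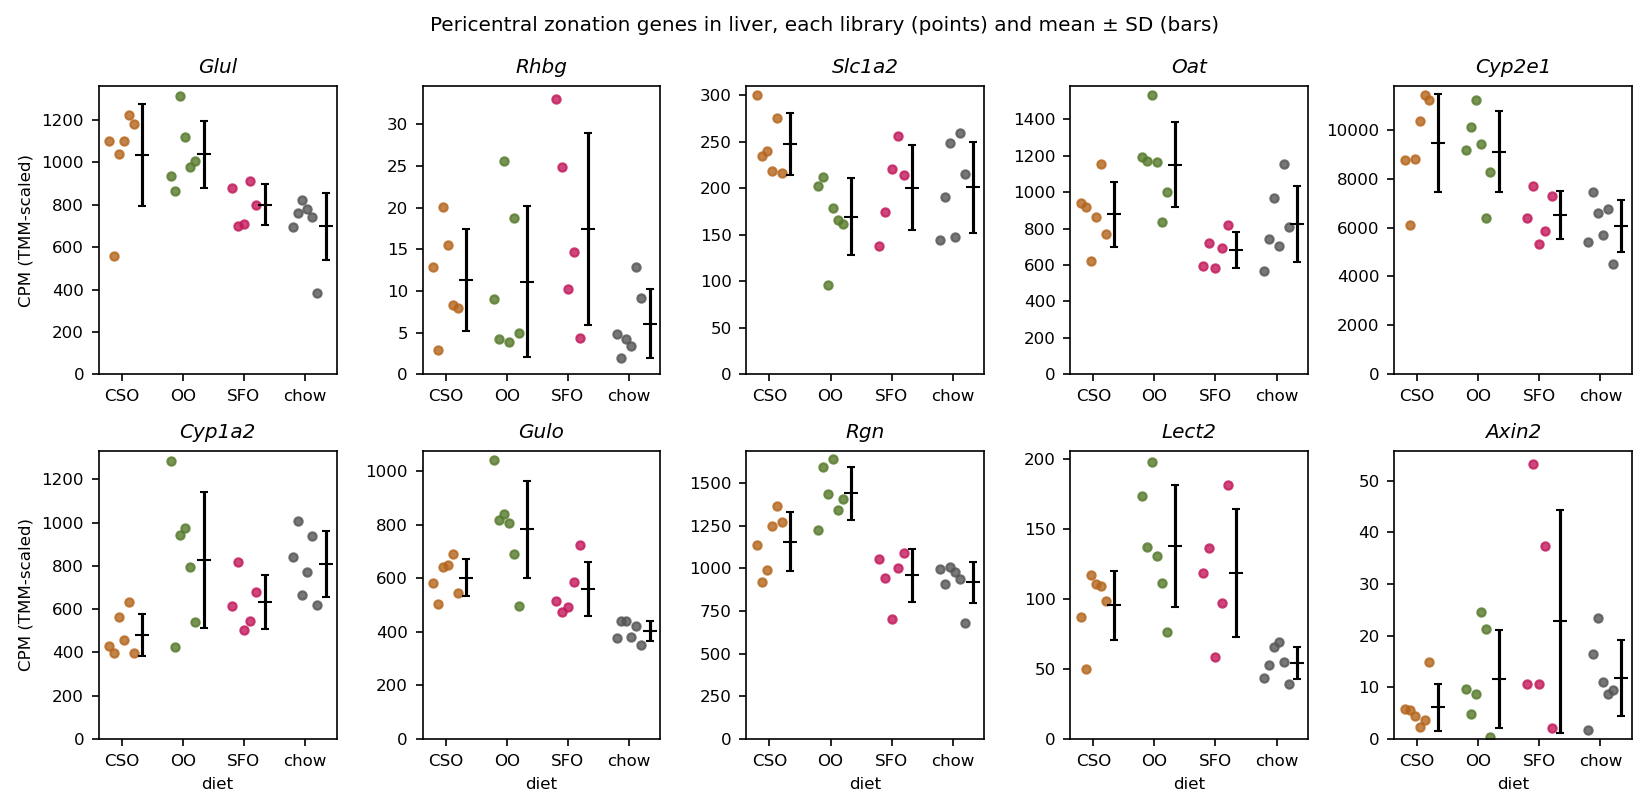
Level of each of the 10 genes (CPM, TMM-scaled, y axis from 0) in every library, by diet (CSO and OO and chow n = 6, SFO n = 5); points are libraries and bars are mean ± SD. The Gulo points of all 3 oil diets lie above the highest chow point of 439 CPM, and the Cyp1a2 points are lowest in CSO.

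The libraries held 5428649 to 14930305 counts. Markers of hepatocytes summed to 94364 to 136201 CPM in CSO and 124464 to 165986 in OO. In SFO they summed to 104093 to 146700 CPM, and in chow to 101855 to 132859 CPM. Genes with any count numbered 11690 to 12757 in CSO libraries, 10615 to 11752 in OO, 11526 to 12316 in SFO and 12044 to 12296 in chow. TMM factors were 0.967 to 1.11 in CSO, 0.811 to 1.03 in OO, 0.973 to 1.04 in SFO and 0.996 to 1.10 in chow. Other signals also moved with diet. Skeletal muscle markers summed to 2.96 to 1394 CPM in CSO, 0.534 to 19.0 in OO, 0.598 to 61.8 in SFO and 10.2 to 3156 in chow, and Pvalb, a parvalbumin of fast muscle, was at 0 in every OO and SFO library. Of the 9 muscle markers tested, 8 were lower in OO than in chow. Libraries with more than 100 CPM of the muscle actin Acta1 were CSO 1 and chow 3, 4 and 5, which is why values without these 4 libraries are given below. Those fits keep only chow 1, 2 and 6 of the chow libraries, so a call lost in them may reflect the smaller group. Acute phase genes summed to 17931 to 23405 CPM in CSO, 21782 to 29139 in OO, 22882 to 49823 in SFO and 16779 to 21759 in chow. A clock score, the log2 ratio of the summed CPM of Ciart, Dbp, Per2, Per3 and Tef to that of Bmal1 (or Arntl), Clock, Nfil3 and Npas2, averaged 2.81 ± 0.47 in CSO (SD, n = 6), 0.76 ± 1.41 in OO (n = 6), 1.02 ± 1.78 in SFO (n = 5) and 1.29 ± 1.14 in chow (n = 6). The part of these signals in the differences below was not tested, beyond the fits without the Acta1 libraries and with the clock score as a covariate. The labels give separate samples without naming the animals, and p-values therefore measure the spread between samples, which may be technical. In whole-liver RNA, fewer pericentral cells and less RNA per pericentral cell cannot be told apart.

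Calls among the 10 genes were made in all 3 oil diets against chow. Gulo, Lect2, Rgn, Cyp2e1 and Glul rose in OO against chow by the quasi-likelihood test of edgeR, whose p-values were Benjamini-Hochberg adjusted across every tested gene, and none of the 10 fell. This count of 5 stands against 2.64% of all tested genes called in that comparison, 1.72% higher in OO. The median log2 fold change of the 10 genes was 0.58, against 0.07 for all tested genes. In 4 of the 10 every OO library was above every chow library (Gulo, Rgn, Lect2 and Glul), a pattern that 0.977% of tested genes had. The count was 3 (Gulo, Rgn and Lect2) without the 4 Acta1 libraries, where 26 of all genes were called, against 316 in the main fit. It was also 3 with library totals in place of TMM, where 224 of all genes were called. With voom it was 3 in OO and 4 in CSO, where 116 and 206 of all genes were called. With DESeq2's Wald test OO and CSO each had 5, where 686 and 111 of all genes were called.

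In CSO against chow, 2 of the 10 genes rose, Cyp2e1 and Gulo, and none fell by the same edgeR test, against 0.409% of all tested genes called, 0.209% higher in CSO. The median log2 fold change of the 10 was 0.45, against -0.02 over all tested genes, and Cyp1a2 and Axin2 were the only 2 with a negative fold change. This count changed with the libraries included, ranging from 0 to 3 as each was left out, and it was 0 without the 4 Acta1 libraries. Calls over all genes ran from 22 to 45 with a library left out and were 14 without the Acta1 libraries, against 49 in the main fit. With a library left out, the log2 fold change ran from 0.54 to 0.63 for Gulo and from 0.57 to 0.74 for Cyp2e1. DESeq2's Wald test called 5 (Glul, Cyp2e1, Gulo and Lect2 higher, Cyp1a2 lower), where 111 of all genes were called. The authors' deposited table called 3 (Cyp2e1, Gulo and Cyp1a2), where 98 of all genes had an adjusted p under 0.05. In SFO against chow only Lect2 rose, against 0.835% of all tested genes called, 0.493% higher in SFO. There the 10 genes had a median log2 fold change of 0.15, against 0.01 over all tested genes. The 3 comparisons share their chow libraries, so similar values among them are not independent of each other.

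**Figure D2:**
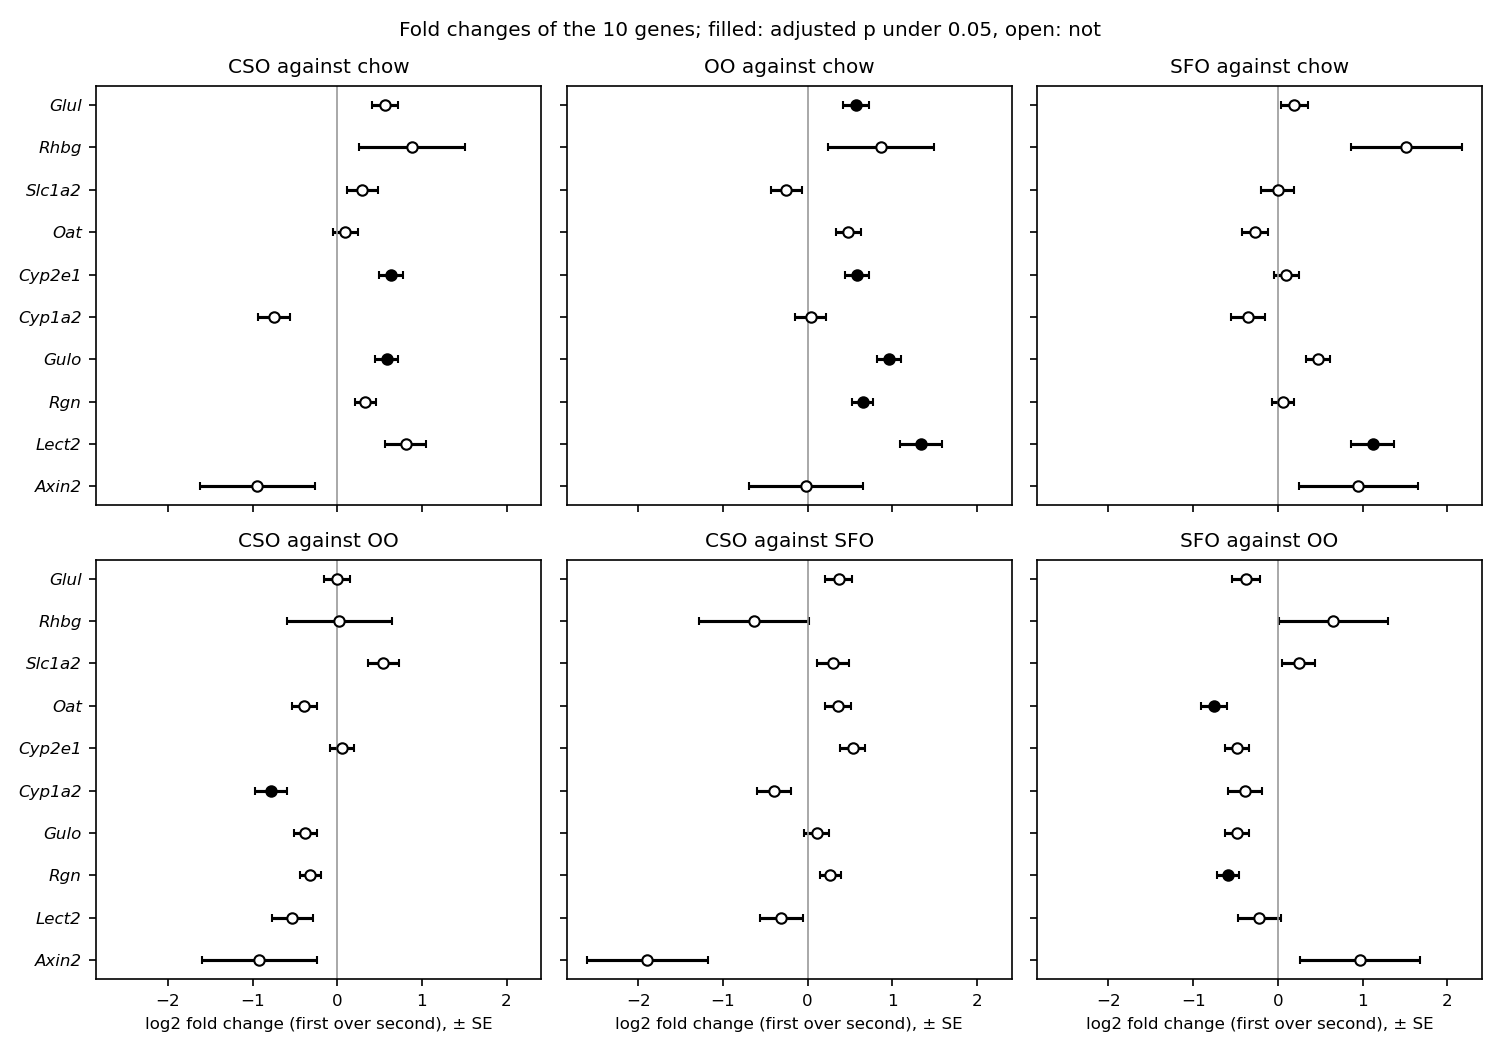
Log2 fold change (x axis) of each gene in the 6 comparisons, first-named diet over second, ± SE from edgeR's fit; filled points passed the adjusted p threshold of 0.05. Filled points lie to the right in CSO, OO and SFO against chow (2, 5 and 1 genes) and to the left in CSO against OO and SFO against OO (1 and 2 genes).

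Gulo, which makes ascorbate from gulonolactone and is active in mice though lost in humans, was higher in every oil-fed liver than in any chow liver. It had a lowest, median and highest level of 505, 612 and 689 CPM in CSO and of 496, 812 and 1040.2 CPM in OO. The 5 SFO libraries had 515, 475, 493, 587 and 725 CPM, against a lowest, median and highest of 349.5, 402 and 439 CPM in chow. No oil-fed library reached down into the chow range, a separation shown by 0.86% of tested genes for CSO and 0.677% for SFO. The log2 fold change was 0.58 ± 0.14 in CSO (adjusted p = 0.0356, edgeR), 0.96 ± 0.14 in OO (adjusted p = 1.68e-05) and 0.48 ± 0.14 in SFO (adjusted p = 0.138). The OO call held with each of the 12 libraries left out (highest adjusted p = 0.000142). The CSO call was lost in 11 of 12 such fits, in all but the one without CSO 2 (highest adjusted p = 0.116), and had an adjusted p of 0.415 without the Acta1 libraries, where its log2 fold change was 0.64 ± 0.19.

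Rgn, also called regucalcin or SMP30, is the gluconolactonase one step before Gulo. Its lowest, median and highest levels were 919.7, 1190.3 and 1367 CPM in CSO, and 1222, 1423 and 1639 CPM in OO. The SFO livers had 1057, 940.4, 704, 1002 and 1088 CPM, against 678, 957 and 1006 CPM (lowest, median and highest) in chow. Every OO library was above every chow library, while the CSO and SFO libraries overlapped chow. Rgn rose in OO with a log2 fold change of 0.65 ± 0.12 (adjusted p = 0.00105, edgeR), and this held without any 1 of the 12 libraries (highest adjusted p = 0.00791). The fold change was 0.33 ± 0.12 in CSO (adjusted p = 0.487) and 0.06 ± 0.13 in SFO (adjusted p = 0.988).

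Calls among the other ascorbate genes went both ways. Of 5 tested, 1 fell in CSO, 1 rose in OO and 1 fell in SFO, with median log2 fold changes of -0.02, 0.45 and 0.11. Ugdh, which makes the UDP-glucuronate from which the pathway and glucuronidation draw, averaged 157 ± 23.4 CPM in CSO (SD, n = 6) and 165 ± 42.6 CPM in SFO (n = 5), against 309.7 ± 47.7 CPM in chow (n = 6). It fell in CSO (log2 fold change -0.98 ± 0.19, adjusted p = 0.00247, edgeR) and in SFO (-0.91 ± 0.20, adjusted p = 0.00668). In OO its fold change was -0.59 ± 0.18 (adjusted p = 0.0645). The SFO call was lost without SFO 5 (adjusted p = 0.0594). Ugp2, which makes UDP-glucose, rose in OO at 527 ± 180.3 CPM, against 313 ± 36.6 CPM in chow (log2 fold change 0.75 ± 0.15, adjusted p = 0.00318). Without the Acta1 libraries none of these 3 calls held (adjusted p = 0.085 for Ugdh in CSO, 0.2 for Ugp2 in OO and 0.116 for Ugdh in SFO). Their log2 fold changes were then -1.03 ± 0.24, 0.65 ± 0.20 and -0.91 ± 0.24.

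Lect2, a chemotactic and hepatokine protein that is a target of β-catenin in mouse liver, had the largest called rises of the 10. Its levels were 49.8, 104 and 117 CPM (lowest, median, highest) in CSO and 76.3, 134 and 198 CPM in OO. In SFO they were 119, 136, 58.5, 96.8 and 182 CPM, and the chow livers ran from 39.7 through a median of 54.0 to 69.2 CPM. Every OO library and all but 1 SFO library (SFO 3) and 1 CSO library (CSO 2) exceeded the highest chow library. Lect2 rose in OO with a log2 fold change of 1.34 ± 0.25 (adjusted p = 0.000852, edgeR) and in SFO with 1.12 ± 0.25 (adjusted p = 0.0125). In CSO the value was 0.81 ± 0.24 (adjusted p = 0.194). The OO call held in each of the 12 fits with a library left out (highest adjusted p = 0.00505). The SFO call was lost without SFO 6, the highest SFO library (log2 fold change 0.91, adjusted p = 0.0951), without the Acta1 libraries (1.39, adjusted p = 0.0574) and with voom (0.92, adjusted p = 0.0726). Of 16 acute phase genes, 5 were also higher than chow in OO and 11 in SFO, with Saa1 at 26.3 to 501 CPM in SFO and 2.14 to 6.65 CPM in chow, and their part in the Lect2 results was not tested.

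Cyp2e1, which oxidises ethanol, acetone and fatty acids, was higher in CSO and OO livers than in chow, and the SFO values overlapped those of chow. CSO livers had 6116, 9574 and 11429 CPM (lowest, median and highest), OO livers 6403, 9301 and 11229 CPM. The SFO values were 6372, 7715, 5344, 5842 and 7308 CPM, and chow livers had 4519, 6143 and 7474 CPM. In CSO and in OO, 5 of 6 libraries were above the highest chow library, the exceptions being CSO 2 and OO 5. Cyp2e1 rose in CSO (log2 fold change 0.64 ± 0.14, adjusted p = 0.0331, edgeR) and in OO (0.58 ± 0.14, adjusted p = 0.0229), and its value in SFO was 0.10 ± 0.15 (adjusted p = 0.972; 2 SE interval -0.19 to 0.39). The CSO call was lost without any 1 of chow 1, 3, 4 and 6 and CSO 3, 4, 5 and 6 (highest adjusted p = 0.108), without the Acta1 libraries (0.72 ± 0.19, adjusted p = 0.296), with no filter (0.64, adjusted p = 0.0507) and with the clock score as a covariate (0.61, adjusted p = 0.209). The OO call was lost without chow 4 (adjusted p = 0.0562), without OO 3 (0.0632), without the Acta1 libraries (0.184), with library totals (0.154) and with voom (0.316).

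Cyp1a2, which clears caffeine and aromatic amines, did not follow Cyp2e1. It had 396, 445 and 634 CPM (lowest, median and highest) in CSO and 427, 868 and 1286 CPM in OO. The SFO libraries gave 613, 819.7, 503, 545 and 679 CPM, against 620.4, 807 and 1009 CPM (lowest, median and highest) in chow. All 6 CSO libraries lay below the chow mean and 5 of them below the lowest chow library, which CSO 5 exceeded. The log2 fold change against chow was -0.75 ± 0.19 in CSO (adjusted p = 0.0749, edgeR), 0.04 ± 0.19 in OO (adjusted p = 0.959) and -0.35 ± 0.20 in SFO (adjusted p = 0.743). DESeq2's Wald test had an adjusted p of 0.00785 for CSO, voom 0.00362, and in the authors' deposited table it was 0.0148. With only the CSO and chow libraries in edgeR's fit it was 0.000464, but it was 0.443 with the clock score as a covariate (log2 fold change -0.60) and 0.642 without the Acta1 libraries (-0.75). The sign in OO turned under several settings, with values from -0.16 to 0.17. Of the 6 other AHR pathway genes tested, none passed edgeR's test, DESeq2 or voom in any oil diet against chow, and 0, 1 and 1 had an unadjusted p under 0.05 in CSO, OO and SFO. Arnt, the most expressed of them and the partner of AHR, had log2 fold changes of 0.14 ± 0.27, -0.06 ± 0.27 and 0.40 ± 0.28 in those diets.

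Glul was higher in OO livers than in chow, and CSO livers had a like average with 1 low library. Levels in CSO were 558, 1102 and 1223 CPM (lowest, median and highest), and in OO 863, 995 and 1314 CPM. SFO livers had 881, 701, 708, 911 and 797 CPM, and chow livers 386, 751 and 825 CPM. Every OO library and 5 of 6 CSO libraries were above the highest chow library, while CSO 2 at 558 CPM was below all chow libraries but chow 6 at 386 CPM. Glul rose in OO with a log2 fold change of 0.57 ± 0.15 (adjusted p = 0.0321, edgeR). In CSO it was also 0.57 ± 0.15 (adjusted p = 0.0933), and it reached an adjusted p of 0.00606 without CSO 2 (log2 fold change 0.69). The SFO value was 0.20 ± 0.16 (adjusted p = 0.895). The OO call was lost without any 1 of chow 1, 4, 5 and 6 and OO 3 and 4 (highest adjusted p = 0.0846), without the Acta1 libraries (0.76, adjusted p = 0.0871), with library totals (0.38, adjusted p = 0.216), with voom (0.63, adjusted p = 0.276) and with only the 2 diets in the fit (adjusted p = 0.0664).

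Oat, which shares the innermost pericentral layer with Glul, had 621, 889 and 1156 CPM (lowest, median, highest) in CSO and 836, 1166 and 1535 CPM in OO. SFO livers had 592, 723, 582, 695 and 819 CPM, and chow livers 564, 775 and 1154 CPM. OO 5 at 836 CPM was the lowest OO library, and OO overlapped chow through chow 3 and chow 5. The CSO and SFO libraries overlapped chow more widely. The log2 fold change in OO was 0.48 ± 0.15 (adjusted p = 0.061, edgeR), under the threshold without chow 5, OO 5 or OO 6. It was 0.09 ± 0.15 in CSO (adjusted p = 1.0) and -0.27 ± 0.16 in SFO (adjusted p = 0.76).

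Slc1a2 and Rhbg, the transporters of the glutamine-forming cells, did not pass the test against chow in any oil diet. Slc1a2 averaged 248 ± 33.5 CPM in CSO (SD, n = 6), 169 ± 41.3 in OO (n = 6), 201 ± 45.7 in SFO (n = 5) and 201 ± 49.0 in chow (n = 6), with log2 fold changes of 0.30 ± 0.18, -0.25 ± 0.18 and -0.0031 ± 0.19 against chow. Its OO libraries tended low, reaching 95.6 CPM in OO 3, and every diet overlapped chow. Rhbg had 2.94 to 20.1 CPM in CSO and 3.84 to 25.6 in OO, 33.0, 24.9, 10.2, 14.7 and 4.36 CPM in SFO, and 1.92 to 12.9 CPM in chow. Its log2 fold changes of 0.89 ± 0.62, 0.86 ± 0.62 and 1.52 ± 0.65 (adjusted p = 1.0, 0.538 and 0.507) were positive in all 3 diets, with 2 SE intervals reaching below 0 in CSO and OO and from 0.21 to 2.83 in SFO. None of them passed the test, and the unadjusted p in SFO was 0.0243.

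The wider glutamate, glutamine and ornithine metabolism list had 15 other tested genes, of which 1 rose in CSO, 4 in OO and 0 in SFO, and none fell. Their median log2 fold changes were 0.09, 0.31 and 0.03. For SFO, edgeR, DESeq2 and voom each called 0, and 1 had an unadjusted p under 0.05. In OO, glutamate dehydrogenase Glud1 averaged 1745 ± 225 CPM, against 1186 ± 154 CPM in chow (log2 fold change 0.56 ± 0.11, adjusted p = 0.00381, edgeR). Aldh4a1, which turns the semialdehyde made by Oat into glutamate, averaged 589.7 ± 97.8 CPM in OO, against 383 ± 33.0 CPM in chow (0.62 ± 0.14, adjusted p = 0.0078). The mitochondrial aspartate aminotransferase Got2 was next by adjusted p (0.47 ± 0.13, adjusted p = 0.0428), and it lost its call without any 1 of chow 1, 2, 4, 5 and 6 and OO 3 and 4. The fourth was the glutamine transporter Slc38a3 (0.49 ± 0.14, adjusted p = 0.0446), named after its values were seen. In CSO the alanine aminotransferase Gpt2 rose (0.51 ± 0.13, adjusted p = 0.0428), and this was lost in 11 of 12 fits that left a library out, all but that without chow 6. Without the Acta1 libraries none of these genes passed, with adjusted p of 0.0712 for Glud1 (log2 fold change 0.60 ± 0.15) and 0.0871 for Aldh4a1 (0.70 ± 0.18).

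Axin2, whose protein helps to degrade β-catenin and whose transcript is a common readout of Wnt activity, showed no call in any comparison. CSO libraries had 5.76, 5.54, 4.50, 2.42, 3.63 and 14.9 CPM, and OO libraries 9.77, 4.86, 8.72, 24.7, 21.3 and 0.390 CPM. SFO libraries had 10.7, 53.1, 10.6, 37.4 and 2.08 CPM, and chow libraries 1.72, 16.4, 23.4, 11.1, 8.71 and 9.47 CPM. Means and SDs were 6.13 ± 4.48 CPM in CSO, 11.6 ± 9.47 in OO, 22.8 ± 21.6 in SFO and 11.8 ± 7.39 in chow. Of the CSO libraries, 5 of 6 were under 6 CPM. Log2 fold changes against chow were -0.94 ± 0.68 in CSO, -0.02 ± 0.67 in OO and 0.95 ± 0.70 in SFO (adjusted p = 1.0, 0.994 and 0.869, edgeR). The 2 SE intervals ran from -2.30 to 0.42 in CSO, from -1.37 to 1.33 in OO and from -0.46 to 2.36 in SFO, each with 0 inside.

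Few genes of the Wnt pathway around Axin2 passed the test. Among 3 tested Wnt ligand and R-spondin genes and 7 other feedback targets, none passed edgeR's test, DESeq2 or voom against chow in any oil diet. At an unadjusted p under 0.05 there were 1, 0 and 1 of the ligand genes and 1, 0 and 0 of the feedback targets in CSO, OO and SFO. Rspo3, the R-spondin of the central vein, averaged 7.66 ± 5.74 CPM in CSO, 4.61 ± 7.40 in OO, 4.22 ± 1.45 in SFO and 8.50 ± 5.28 in chow. Tbx3, a transcription factor and the most expressed feedback target, averaged 30.8 ± 4.57 CPM in CSO, 70.7 ± 32.8 in OO, 54.4 ± 24.9 in SFO and 60.9 ± 28.8 in chow, with a log2 fold change in CSO of -0.98 ± 0.33 (adjusted p = 0.342). Of 17 receptors and transducers, β-catenin itself (Ctnnb1) rose in OO, at 354 ± 72.0 CPM, against 231 ± 26.8 CPM in chow (0.62 ± 0.15, adjusted p = 0.0184). That call was lost without chow 4 (adjusted p = 0.0536) and without the Acta1 libraries (log2 fold change 0.54 ± 0.20, adjusted p = 0.315). In CSO and SFO edgeR called 0 of the 17, with 2 and 0 at an unadjusted p under 0.05. DESeq2 called 0 in both, and voom 1 in CSO and 0 in SFO.

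Pericentral genes outside the 10 moved in both directions. Of 19 others tested, 1 rose and 2 fell in CSO, 3 rose and 2 fell in OO, and 2 rose and 2 fell in SFO, with median log2 fold changes of 0.15, 0.25 and -0.35. Those that fell in all 3 were the glutathione transferase Gstm1 (log2 fold changes -1.40 ± 0.12, -1.09 ± 0.12 and -1.60 ± 0.13 in CSO, OO and SFO) and the P450 Cyp2c29 (-1.32 ± 0.15, -0.72 ± 0.15 and -1.63 ± 0.16). Both belong to multigene families whose members share sequence, so their separate counts are uncertain. Rnase4, a secreted ribonuclease, rose in all 3 (0.59 ± 0.14, 0.81 ± 0.15 and 0.94 ± 0.15, adjusted p = 0.0466, 0.000787 and 9.89e-05), and its CSO call was lost without any 1 library except chow 5. The other rises were of the transporters Slco1b2 (0.50 ± 0.12, adjusted p = 0.0139) and Slc13a3 (1.84 ± 0.45, adjusted p = 0.019) in OO, and of the ribonuclease Ang, which shares its locus with Rnase4, in SFO (1.21 ± 0.30, adjusted p = 0.0288), all named after their values were seen. Without the Acta1 libraries the counts were 0 higher and 2 lower in CSO, 0 and 1 in OO, and 1 and 2 in SFO. Rnase4 then lost its calls in CSO (adjusted p = 0.702) and OO (0.0621), and Cyp2c29 its call in OO (0.0613). Their log2 fold changes in those fits were 0.55 ± 0.19, 0.78 ± 0.19 and -0.78 ± 0.19. Among 20 periportal genes, 0 were called in CSO, 1 rose and 1 fell in OO, and 0 rose and 2 fell in SFO. In CSO 4 periportal genes had an unadjusted p under 0.05, DESeq2 called 2 lower and voom 3 lower. The periportal P450 Cyp2f2 fell in OO (-0.47 ± 0.13, adjusted p = 0.034) and SFO (-0.52 ± 0.14, adjusted p = 0.0463), the phospho-lyase Etnppl fell in SFO (-1.58 ± 0.38, adjusted p = 0.0432), and the immunoglobulin receptor Pigr rose in OO (0.54 ± 0.12, adjusted p = 0.0056). Cyp2f2 and Etnppl lost these calls in 7 or 8 of the fits that left a library out, and without the Acta1 libraries no periportal gene passed against chow.

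Set against each other, the oil diets differed in 3 of the 10 genes. Cyp1a2 was lower in CSO than in OO (log2 fold change -0.79 ± 0.19, adjusted p = 0.0312, edgeR), the only member of 10 called in that comparison, where 1.09% of all tested genes were called, 0.835% lower in CSO. All 6 CSO libraries were below the OO mean, and the groups overlapped through OO 2 at 427 CPM and OO 6 at 542 CPM. The call was lost without any 1 of CSO 1, 2, 4 and 6 and OO 1, 3 and 4 (highest adjusted p = 0.0929), without the Acta1 libraries (-0.76, adjusted p = 0.121) and with the clock score as a covariate (-0.55, adjusted p = 0.335). It was also lost with library totals (adjusted p = 0.13), voom (0.0634) and only the 2 diets in the fit (0.0662). Slc1a2 was higher in every CSO library (216 to 300.0 CPM) than in any OO library (95.6 to 213 CPM), a separation that 0.802% of tested genes had, with a log2 fold change of 0.55 ± 0.18 and an adjusted p of 0.117. Gulo was -0.38 ± 0.14 in this comparison (adjusted p = 0.158), and it passed without OO 6 (adjusted p = 0.0497).

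Oat and Rgn were lower in SFO than in OO, 2 of 10 genes, against 1.06% of all tested genes called, 0.794% lower in SFO. The 5 SFO libraries of Oat reached 819 CPM at most, and the OO libraries began at 836 CPM. For Rgn the highest SFO library had 1088 CPM, and the lowest OO library had 1222 CPM. Each of these 2 genes thus separated the diets without overlap, as 0.576% of tested genes did in that direction. The log2 fold change was -0.75 ± 0.16 for Oat (adjusted p = 0.0122, edgeR) and -0.59 ± 0.13 for Rgn (adjusted p = 0.0149). Oat kept its call in all 11 fits with a library left out (highest adjusted p = 0.0435), and Rgn lost its own without SFO 3 (-0.50, adjusted p = 0.0585). With only the 2 diets in the fit both were lost (adjusted p = 0.0698 for Oat and 0.164 for Rgn), as was Oat with voom (0.257) and Rgn with library totals (0.0615). Over all genes these 3 settings called 2, 9 and 56 genes, in that order, against 127 in the main fit. Gulo and Cyp2e1 were -0.48 ± 0.15 each (adjusted p = 0.0814 and 0.0968). Gulo passed without OO 6 or SFO 6 (adjusted p = 0.0302 and 0.0369), and Cyp2e1 passed without OO 5 (adjusted p = 0.0272). In CSO against SFO, edgeR called 0 of the 10 genes, against 0.493% of all tested genes. At an unadjusted p under 0.05 there were 5 (Glul, Oat, Cyp2e1, Rgn and Axin2), against 921 of the 11971 tested genes. DESeq2's Wald test called 1 (Cyp2e1, log2 fold change 0.51, adjusted p = 0.0493), against 140 over all genes, and voom 0, against 127. Cyp2e1 was 0.54 ± 0.15 by edgeR (adjusted p = 0.11), and it passed without CSO 2 (adjusted p = 0.00659).

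**Figure D3:**
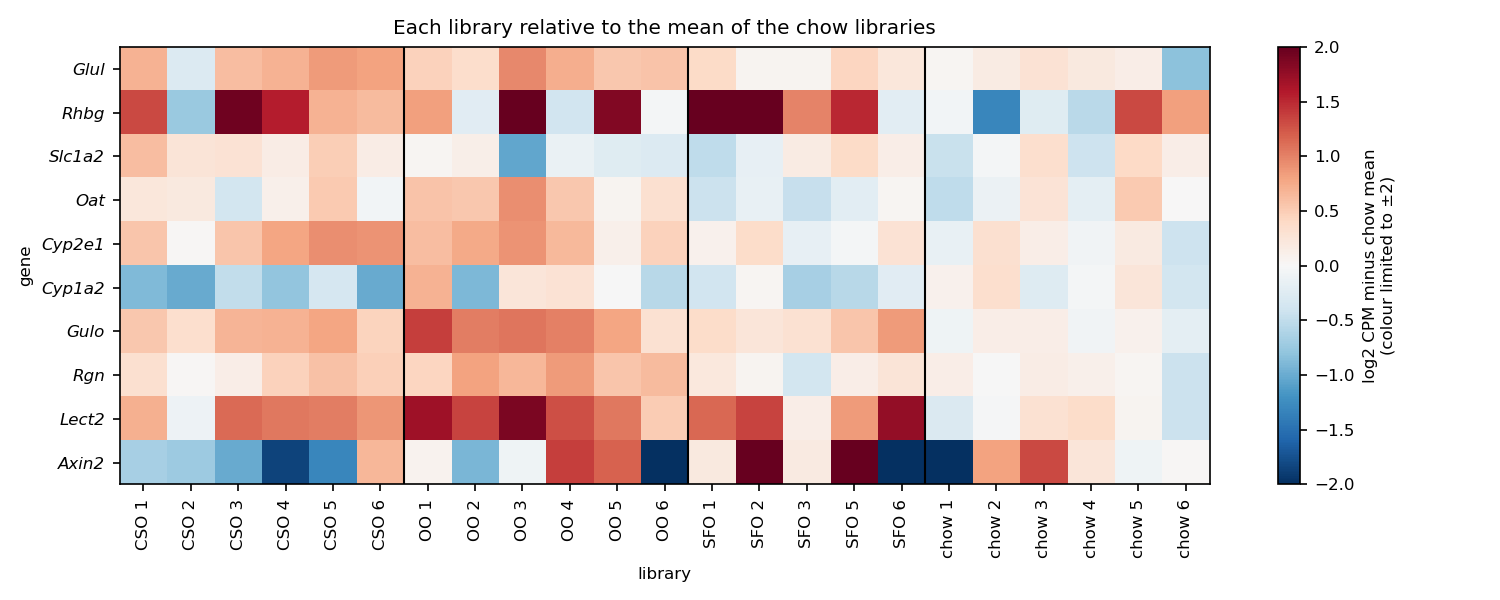
Level of each gene (y axis) in each of the 23 libraries (x axis) as log2 CPM minus the mean log2 CPM of the chow libraries, with colour limited to ±2. Gulo is positive in every oil-fed library, Cyp1a2 is negative in all 6 CSO libraries, and Rhbg and Axin2 vary most from library to library within a diet.

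Relations between the genes were tested for chosen pairs. The pairs were chosen with earlier results of these data known, and Gulo and Lect2 share no role described above. Of 7 pairs compared over the 23 libraries by permutation tests on log2 CPM, 2 passed adjustment over the 7. Gulo and Lect2 had a Pearson r of 0.853 and a Spearman rho of 0.838 (p = 1e-05 each, the smallest that the permutations can give, adjusted p = 7e-05), and r was 0.816 without OO 1 and chow 6, the libraries farthest from the Gulo median. Gulo and Rgn had an r of 0.714 and a rho of 0.755 (permutation p = 0.00018 and 6e-05, adjusted p = 0.00063 and 0.00021), with r of 0.707 without the same 2 libraries and 0.295 as deviations from diet means. For Gulo and Lect2, r of the deviations from diet means was 0.721. The permutations moved libraries across diets, so 2 genes that both differ between diets can pass by that alone. The deviations from diet means were not tested.

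The other 5 pairs did not pass. Cyp2e1 and Cyp1a2 had an r of -0.0552 and a rho of 0.000988 (permutation p = 0.8 and 0.998, adjusted p = 0.8 and 0.998), and an r of 0.352 as deviations from diet means. Glul had an r of 0.366 with Oat, 0.27 with Rhbg, -0.105 with Slc1a2 and -0.092 with Axin2 (permutation test, adjusted p = 0.2, 0.369, 0.786 and 0.786), and rho of 0.448, 0.267, 0.0593 and -0.0632 (adjusted p = 0.0768, 0.376, 0.919 and 0.919). Without chow 6 and CSO 2 the r with Oat was 0.523.

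**Figure D4:**
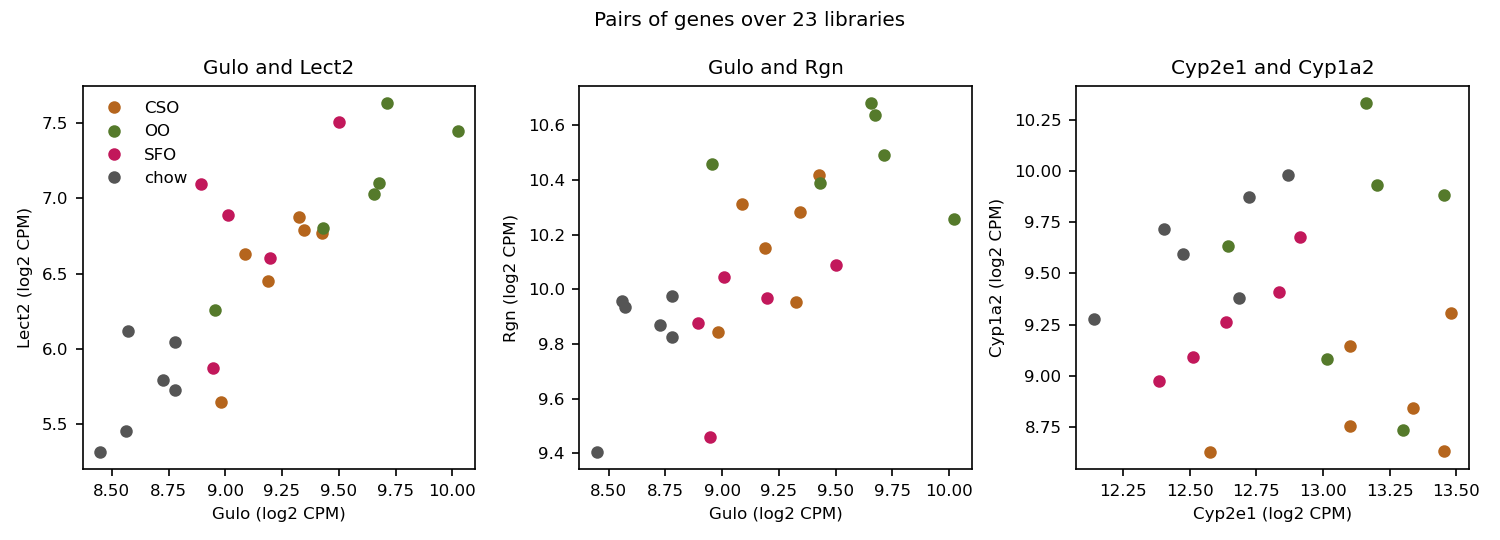
Log2 CPM of 2 genes against each other over the 23 libraries, coloured by diet, for Gulo and Lect2, Gulo and Rgn, and Cyp2e1 and Cyp1a2. Gulo and Lect2 rise together (r = 0.853), and Cyp2e1 and Cyp1a2 do not (r = -0.0552), with the CSO points low for Cyp1a2 and, but for CSO 2, to the right for Cyp2e1.

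Among 5685 tested genes whose average log2 CPM was 4 or more, those most like each of 3 members over the 23 libraries were found by Pearson r, as a description. Nearest to Glul were Cyp2e1 (r = 0.808), Rgn (0.781) and the scramblase-family gene Plscr2 (0.755). Nearest to Cyp2e1 were the mitochondrial dehydrogenase Hsd17b10 (0.88), sorbitol dehydrogenase Sord (0.875) and glutaryl-CoA dehydrogenase Gcdh (0.861). Nearest to Gulo were Lect2 (0.853), the cargo receptor Surf4 (0.821) and Plscr2 (0.799). As deviations from diet means these 9 values ran from 0.469 for Gulo and Plscr2 to 0.858 for Gulo and Surf4. Each of the 3 had 4 other members among its 100 nearest genes. All these values share libraries, depth and scaling.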

How the data were processed

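The authors deposited a table of raw gene counts covering 23 libraries and a table of results for each oil diet, computed as chow over oil. Per the file headers, the result tables give a mean signal (counts divided by size factors, not used here), a log2 fold change and its log2 standard error, a score (Wald statistic) and p-values with and without adjustment. Here the sign was reversed, giving oil over chow. The submitters' processing notes name Trimmomatic, STAR 2.7.1a, the build mm39, HTSeq 0.9.1, DESeq2 and DESeq. How strand was treated in counting is not stated in those sources. Of the 24 labelled samples, SFO_4, set aside by the submitters as an outlier with possible contamination, was not analysed here.

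The tests used edgeR 4.0.16 in R 4.3.3 (TMM, filterByExpr, robust quasi-likelihood F test, the 4 diets in one fit with diet as the only term), and p-values were Benjamini-Hochberg adjusted over the 11971 genes kept, with a threshold of 0.05. Those genes hold 99.9% of the counts. At an unadjusted p under 0.05 there were 637, 1930 and 927 of them in CSO, OO and SFO against chow. Log2 CPM used a prior count of 2, and SE is the log2 fold change divided by the root of F. Relations used two-sided permutation tests with 100000 resamples. Alternatives were DESeq2 1.42.0 (its size factors in edgeR, and its Wald test), library totals, limma 3.58.1 voom with quality weights, no filter, a filter of 10 counts in 5 libraries, a fit of only the 2 diets compared, the replicate number as a block, and each library left out. Fits without the 4 libraries above 100 CPM of Acta1 and with the clock score were chosen after seeing the data. No 2 libraries of a diet were duplicates (55 pairs, mean chi-square per gene at least 28.6). The procedure was tested on simulated data. Figures and promoter searches used Python 3.11.15 with matplotlib 3.10.9, and promoters are RefSeq GRCm38.p6, another build than that of the counts.

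The 10 genes, the other gene lists, the tests and the alternatives were chosen with earlier results of these data known, so no list counts as independent support. Named were all 10 genes, up to 3 called genes per other list and comparison with chow by smallest adjusted p (otherwise the most expressed), and the 3 genes most like Glul, Cyp2e1 and Gulo.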

Additional observations from a re-analysis of the deposited data

Results flagged for a closer look

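Within a diet, 4 of 40 groups of libraries held a value far from the rest. For a single group chance gives about 1 in 20. The groups share the same libraries and are not independent, so the count cannot be set against that rate. Glul in CSO 2 was 558 CPM, with the next lowest CSO library at 1042 CPM. In chow 6, Glul was 386 CPM and Rgn 678 CPM, with the next lowest chow libraries at 696 and 907 CPM. Axin2 in CSO 6 was 14.9 CPM, and the next highest CSO library had 5.76 CPM. Chow 6 was also the lowest chow library for Cyp2e1, Cyp1a2, Gulo and Lect2, but not for Rhbg, Slc1a2, Oat or Axin2. Likewise, CSO 2 was the lowest CSO library for Rhbg, Cyp2e1, Cyp1a2, Gulo, Rgn and Lect2, but not for Slc1a2, Oat or Axin2.

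In 3 cases the response to an oil differed from that to another oil by the test of the difference itself, with the log2 fold changes of -0.79 for Cyp1a2 in CSO against OO, -0.75 for Oat in SFO against OO and -0.59 for Rgn in SFO against OO given above.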

How the results depend on the processing

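The number of the 10 genes called is given for each setting, with the number called over all genes in brackets. In CSO against chow (2 in the report, 49 over all genes) it was 5 with DESeq2's Wald test (111). It was 4 with voom (206) and with only the 2 diets compared (198). It was 1 with no filter (46), with the replicate block (52) and with the clock score (29), and 0 without the Acta1 libraries (14). In OO against chow (5, 316 over all genes) it was 3 with library totals (224), with voom (116) and without the Acta1 libraries (26). It was 4 with only the 2 diets (122) and with the replicate block (208), where edgeR no longer called Cyp2e1 (adjusted p = 0.0754). In SFO against chow (1, 100 over all genes) it was 0 with voom (122) and without the Acta1 libraries (34). In CSO against OO (1, 130 over all genes) it was 0 with library totals (83), voom (114) and only the 2 diets (79). It was also 0 with the replicate block (122), with the clock score (33) and without the Acta1 libraries (40). In CSO against SFO (0, 59 over all genes) it was 1 with DESeq2's Wald test (140) and with only the 2 diets (91). In SFO against OO (2, 127 over all genes) it was 1 with library totals (56) and voom (9) and 0 with only the 2 diets (2). With each library left out, the counts ran from 0 to 3, 3 to 6, 0 to 1, 0 to 2, 0 to 1 and 1 to 3 in the same order. Over all genes they ran from 22 to 45, 145 to 471, 59 to 87, 62 to 260, 30 to 77 and 31 to 240. The fits without the Acta1 libraries and those with only 2 diets hold fewer samples; otherwise the cause was not tested. Same-numbered libraries of different diets did not deviate together (r from -0.101 to 0.0346), so the replicate block is given only as a value.

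Genes near 0 changed sign. Cyp1a2 in OO against chow was -0.16 with library totals, -0.0509 with voom and -0.0566 with the clock score. Axin2 in OO against chow was 6e-04 with the replicate block and 0.34 without the Acta1 libraries. Slc1a2 in SFO against chow was 0.0115 with DESeq2's size factors, 0.0114 with its Wald test, 0.0385 with voom, 0.0078 with only the 2 diets and 0.13 without the Acta1 libraries. In CSO against OO, Glul was 0.16 with library totals and 0.13 with the clock score, and Rhbg was -0.0238 without the Acta1 libraries and -0.15 with the clock score. Rspo3 in CSO against chow was 0.12 with the clock score, and Tbx3 in SFO against chow was 0.29 without the Acta1 libraries. With a library left out, values crossed 0 for Oat in CSO against chow (-0.0022 to 0.21), Cyp1a2 (-0.13 to 0.17), Axin2 (-0.38 to 0.30), Tbx3 (-0.0059 to 0.46) and Arnt (-0.18 to 0.0653) in OO against chow, Slc1a2 (-0.11 to 0.11), Rgn (-0.0093 to 0.16) and Tbx3 (-0.43 to 0.0882) in SFO against chow, Glul (-0.0581 to 0.12), Rhbg (-0.22 to 0.46) and Cyp2e1 (-0.0287 to 0.15) in CSO against OO, and Rspo3 in CSO against chow (-0.56 to 0.14). None of the 10 genes, and no gene named from another list by the naming rule, changed sign in a comparison in which it was called.

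Library totals moved the median of all genes by -0.18 in OO against chow, 0.16 in CSO against OO and 0.13 in SFO against OO. Calls over all genes were then 62 higher and 162 lower in OO against chow, compared with 206 and 110 with TMM, 49 and 34 in CSO against OO, compared with 30 and 100, and 33 and 23 in SFO against OO, compared with 32 and 95. Axin2 and Rhbg had the lowest counts, 3 to 444 and 15 to 337 per library.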
